A study of Xenopus tropicalis with 11 samples.

Results

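The regions described here are H3K27ac domains that lack a called H3K4me1 peak, in whole early gastrula embryos (stage 10.5) of the frog Xenopus tropicalis, strain Nigerian A. They are the intervals of the H3K27ac list on the assembled chromosomes that are at least 500 and under 1500 bp wide and share no base with an H3K4me1 interval. There were 2472 of them, 17.3% of the 14328 chromosomal H3K27ac intervals of that width and part of 91764 H3K27ac intervals in all. The other 11856 intervals of that width met H3K4me1 and serve as the comparison. The study immunoprecipitated 5 regulators, namely the organizer transcription factors Gsc, Lim1 and Otx2, the coactivator p300 and the corepressor TLE, besides the 2 histone marks. Each antibody has 1 library, made from 2000 to 3000 pooled, fixed embryos, so no replicate error can be given. Otx2 and Lim1 share an input library, so do TLE and p300, and so do the 2 marks. Gsc has an input of its own, and the 4 inputs were not analysed here. All cells of the embryo are mixed in each library, so a mark and a factor found at 1 domain may belong to different cells.

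H3K27ac, acetylation of lysine 27 of histone H3, is laid down by p300 and its relative CBP and is found at active enhancers and active promoters. H3K4me1, monomethylation of lysine 4 of the same histone, is typical of enhancers. At active promoters the same lysine is usually trimethylated, and H3K4me1 then lies to either side of the promoter and not on it. Otx2 and Lim1 are homeodomain activators of the head organizer, Gsc is a homeodomain repressor of the organizer, and TLE (Groucho) is a corepressor that such repressors recruit. Trimethylation was not among the deposited lists, and the lists name neither genes nor the genome build, so no domain is assigned to a promoter or a gene. "Lacking" means that no interval was called. H3K4me1 signal below the calling threshold cannot be seen in peak lists.

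The domains were chosen by their H3K27ac and H3K4me1 calls, that is by a called H3K27ac interval, its width and the lack of a called H3K4me1 interval, so widths, H3K27ac values and the absence of overlap are given as description only. The domains had a median width of 633 bp and a median H3K27ac fold enrichment of 2.85, the authors' ratio of peak signal to local background. The median −log10 q, the authors' strength of the call, was 2.58. The domains with H3K4me1 had medians of 705 bp, 3.15-fold and 4.47. In those, H3K4me1 covered a median 78.2% of the domain, and 9139 of 11856 were covered over at least 50% of their width. The domains without H3K4me1 lay on all 10 chromosomes and made up 15.3% (chromosome 7) to 19.5% (chromosome 6) of the domains of that width.

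Domains just inside and just outside the limits of the rule are given as description. The 132 domains without H3K4me1 that were 500 to under 510 bp wide met Lim1 in 31.1% and TLE in 10.6% of cases, and the 134 intervals of 490 to under 500 bp met them in 37.3% and 15.7%. At the upper limit, 58.3% of 36 domains of 1400 to under 1500 bp met TLE, as did 11 of the 16 intervals of 1500 to under 1600 bp. The 53 domains with H3K4me1 at most 50 bp away met TLE in 41.5% of cases, and the 75 domains that overlapped H3K4me1 by at most 50 bp met it in 42.7%.

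The domains ranged from short breaks inside H3K4me1 to places far from any. The nearest H3K4me1 interval lay at a median of 1649.5 bp, with 1st and 3rd quartiles of 369 and 7909 bp. The gap to the H3K4me1 interval before the domain had a median of 5272.5 bp and that to the interval after it 5350 bp, with no side nearer than the other by more than 100 bp at the median. At the widest, the flanking H3K4me1 intervals on chromosome 2 were 472887 bp apart, around the domain at 19926186 to 19926868, which met Otx2, Lim1 and p300. At the narrowest they were 713 bp apart, around the domain on chromosome 5 at 66315742 to 66316255, which met none of the 5 factors and had H3K4me1 at 3 bp before and 196 bp after it.

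With a limit of 2 kb, H3K4me1 stood on both sides of 479 domains (19.4%), on 1 side of 818 (33.1%) and on neither side of 1175 (47.5%). These are called flanked, half-flanked and isolated domains below. The flanked domains sat in a hole in H3K4me1 with a median length of 1923 bp, and their nearer and farther H3K4me1 intervals lay at medians of 260 and 683 bp. For the isolated domains the nearer and farther medians were 8499 and 25411 bp. With a limit of 5 kb, 770 domains were flanked and 838 isolated.

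**Figure D1:**
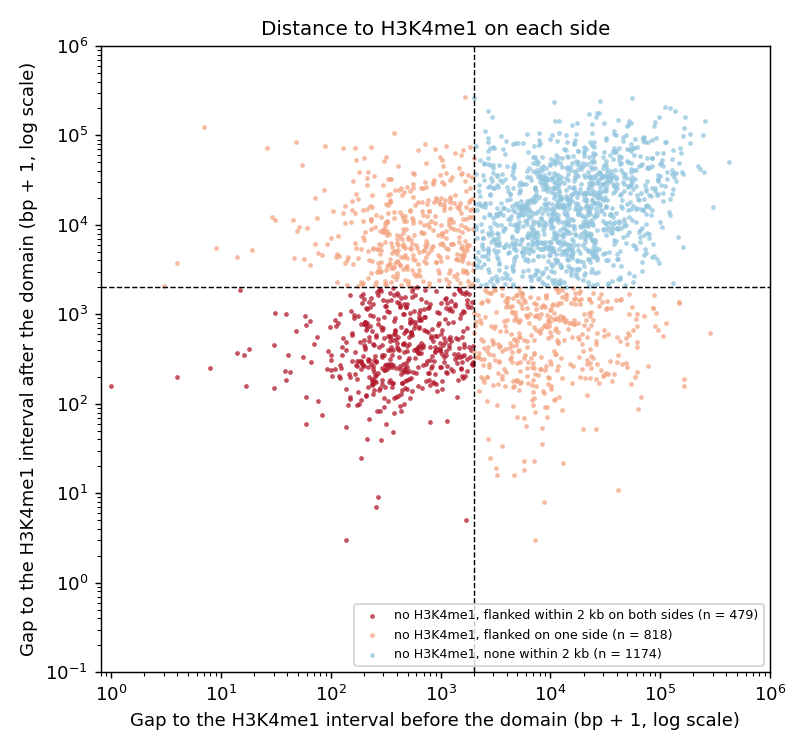
Each point is 1 H3K27ac domain without H3K4me1, placed by the gap in bp (plus 1, log scales) to the H3K4me1 interval before it and after it. Dashed lines mark 2 kb and divide the 479 flanked, 818 half-flanked and 1175 isolated domains. The single domain with no H3K4me1 interval after it on its chromosome is not drawn.

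The flanked domains were the wider and stronger ones. They had a median width of 829 bp, an H3K27ac fold of 3.54 and a −log10 q of 14.2. Isolated domains had medians of 602 bp, 2.88-fold and 2.15, and half-flanked domains 627 bp, 2.69-fold and 2.56. Within a class of fold the call of an isolated domain was weaker at the median. Among domains of 3 to under 3.5-fold, the median −log10 q was 12.4 for flanked and 2.79 for isolated domains. Among domains of 4.5-fold and over, the median −log10 q was 24.6 for the 132 flanked domains and 7.24 for the 61 isolated ones. The latter flanked and isolated domains had median widths of 866 and 660 bp, and width was not held fixed. All 5 domains of highest H3K27ac fold were flanked. They lay on chromosome 9 at 59203746 to 59204373 (7.61-fold), chromosome 10 at 19258894 to 19259454 (7.49-fold), chromosome 3 at 130056944 to 130057500 (7.32-fold), chromosome 1 at 47128898 to 47129420 (7.30-fold) and chromosome 7 at 90493571 to 90494168 (7.20-fold). Each of these met Otx2, TLE and p300, 3 of the 5 met Lim1 and none met Gsc. That is close to the shares over all 132 flanked domains of 4.5-fold and over. Of those, 97.0% met Otx2, 90.2% TLE, 100% p300, 63.6% Lim1 and 1.52% Gsc.

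Spacing among H3K27ac intervals followed the same division. Within the H3K27ac list, another interval lay within 500 bp of 59.7% of flanked, 33.9% of half-flanked and 12.1% of isolated domains, against 33.7% of the domains with H3K4me1. The median distance to it was 373 bp for flanked and 6695 bp for isolated domains. No gap below 145 bp exists between intervals of this list. The median distance from a domain without H3K4me1 to the nearest other one was 132290 bp. Another lay within 10 kb of 238 of the 2472 (9.63%) and within 50 kb of 686 (27.8%), and these shares were not set against an expected value. Linked at up to 10 kb, they formed 114 pairs, 2 runs of 3 and 1 run of 4. The run of 4 spans 11957 bp on chromosome 3 from 125071219 to 125083175, and all 4 of its domains met Otx2 and p300. Over all 2472 domains, 40.1% met Otx2 and 42.2% met p300.

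Organizer factors and coregulators were not used to choose the domains and can be compared. Peaks of all 5 were met by a smaller share of domains without H3K4me1 than of domains with it. For Lim1 the difference was the smallest and did not hold once width and H3K27ac fold were held fixed. TLE was met by 612 of the 2472 domains without H3K4me1 (24.8%, exact 95% interval 23.1 to 26.5), against 63.9% (63.0 to 64.7) of those with H3K4me1 and 57.1% of all 14328. p300 was met by 42.2% (40.2 to 44.1), against 77.0% (76.3 to 77.8), and by 71.0% of all. Otx2 was met by 40.1% (38.1 to 42.1), against 73.7% (72.9 to 74.5), and by 67.9% of all. Gsc was met by 5.99% (5.08 to 7.0), against 12.7% (12.1 to 13.3), and by 11.5% of all. Lim1 was met by 42.9% (41.0 to 44.9), against 47.6% (46.7 to 48.5), and by 46.8% of all. None of the 5 was met by 820 domains without H3K4me1 (33.2%), against 10.3% of those with it, and all 5 by 21 (0.850%), against 7.64%.

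The classes differ in width and H3K27ac fold, so the odds were also compared within 50 strata of width and H3K27ac fold. The Mantel-Haenszel odds ratio of meeting a peak, without over with H3K4me1, was 0.199 (95% interval 0.178 to 0.221) for TLE, 0.241 (0.216 to 0.267) for p300, 0.275 (0.249 to 0.305) for Otx2 and 0.503 (0.421 to 0.601) for Gsc. These 4 intervals exclude 1, also at a 99.5% level. That level allows for 10 odds ratios, but not for the choice of domains and comparisons with earlier results known. The odds ratio for Lim1 was 1.11 (1.004 to 1.22), and at the 99.5% level its interval of 0.964 to 1.27 includes 1. Without strata it was 0.829 (0.759 to 0.904), so that no direction can be given for Lim1. Intervals count domains as independent and cover counting error only.

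**Figure D2:**
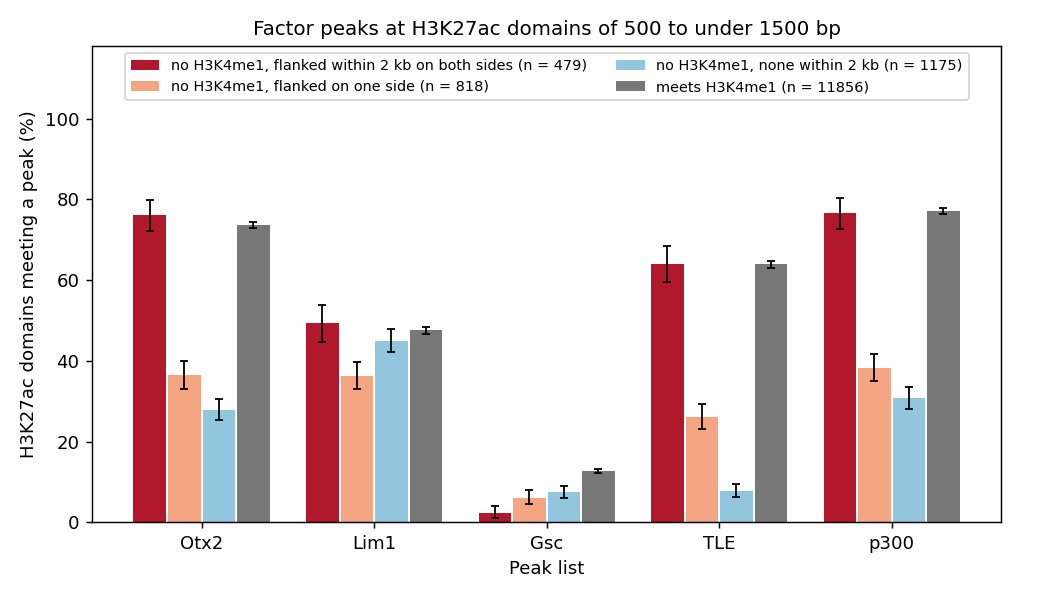
Bars give the percentage of H3K27ac domains of 500 to under 1500 bp that meet a peak of each list by at least 1 bp, with exact 95% intervals, for flanked, half-flanked and isolated domains without H3K4me1 and for domains with H3K4me1. Flanked domains stand near those with H3K4me1 for Otx2, TLE and p300 (64.1 and 63.9% for TLE), isolated domains stand far below (7.83% for TLE), and Gsc is lowest at flanked domains (2.30%).

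The corepressor TLE was met by 64.1% (59.6 to 68.4) of flanked domains and by 7.83% (6.36 to 9.52) of isolated ones. Half-flanked domains stood between, at 26.0%. Within strata of width and fold, the odds of TLE were 12.3 times (8.81 to 17.1) higher at flanked than at isolated domains. p300 was met by 76.6% of flanked and 30.8% of isolated domains, an odds ratio of 5.77 (4.13 to 8.05). Otx2 was met by 76.2% of flanked and 27.9% of isolated domains, an odds ratio of 5.29 (3.86 to 7.26). The flanked shares fell more when the summit or midpoint of the factor peak had to lie inside the domain. They were then 35.5% for TLE, 57.6% for p300 and 50.7% for Otx2. The isolated shares were then 6.21, 29.9 and 24.9%.

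Gsc went the other way. It was met by 11 of 479 flanked domains (2.30%, 1.15 to 4.07) and by 87 of 1175 isolated ones (7.40%, 5.97 to 9.05), an odds ratio of 0.127 (0.0505 to 0.319). This ratio was 0.294 without strata and 0.517 (0.298 to 0.896) with a flank distance of 5 kb, and its interval included 1 at widths of 1000 bp and over (0.321) and with Gsc peaks of −log10 q of at least 10 (0.618). Lim1 was met by 49.3% of flanked and 44.9% of isolated domains. Flanked domains are wider and stronger, and within strata the odds ratio for Lim1 was 0.428 (0.314 to 0.585), whereas without strata it was 1.19 (0.962 to 1.47). All 5 ratios exclude 1 at the 99.5% level too. Within strata of width and −log10 q, which also separates the classes, the ratios were 1.17 (0.807 to 1.69) for p300, 1.57 for Otx2, 5.05 for TLE and 0.186 for Lim1. With the summit or midpoint of the factor peak required inside the domain, they were 2.06 for p300, 1.41 for Otx2, 5.11 for TLE and 0.241 for Lim1.

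**Figure D3:**
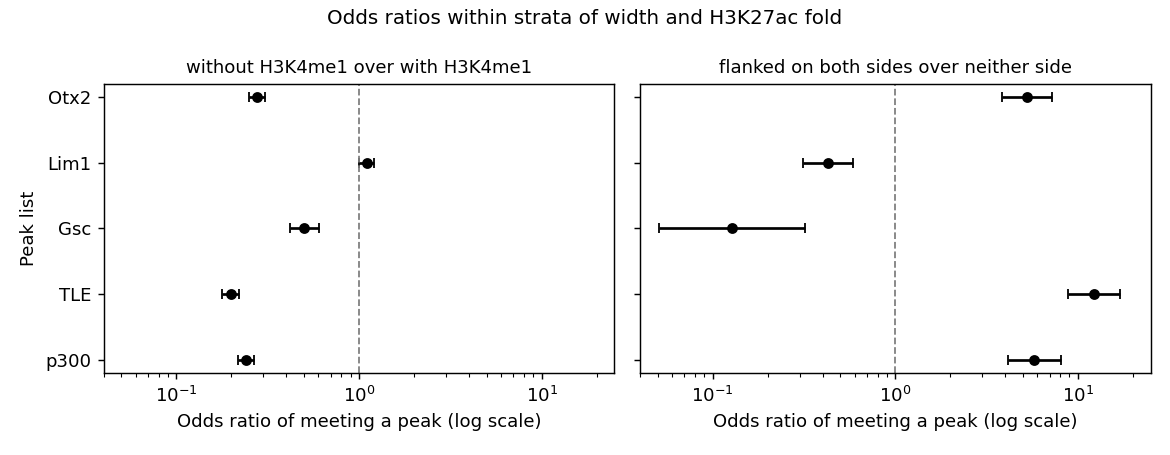
Points are Mantel-Haenszel odds ratios (log axis) of meeting a peak within strata of width and H3K27ac fold, with 95% intervals. The left panel sets domains without H3K4me1 over those with it, the right panel flanked over isolated domains. TLE lies at 0.199 on the left and 12.3 on the right, and Gsc at 0.503 and 0.127.

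Flanked and isolated domains were each also set against the domains with H3K4me1, a comparison chosen with these data in view. Gsc was rarer at flanked domains than at domains with H3K4me1, with 2.30% against 12.7% and an odds ratio of 0.145 (0.0794 to 0.266). The other ratios for flanked domains were 0.564 (0.431 to 0.739) for p300, 0.715 (0.580 to 0.882) for TLE, 0.746 (0.578 to 0.962) for Otx2 and 0.835 (0.683 to 1.02) for Lim1. At the 99.5% level the interval for Otx2, 0.518 to 1.07, includes 1. That level allows for 10 odds ratios, and not for the 10 planned and 10 added ones together. For flanked domains, the ratios for p300, TLE and Otx2 lost their call or turned over in several settings (with no strata, 0.977, 1.01 and 1.14), and that for Gsc did not. In other settings the ratios for p300, TLE and Otx2 were lower and excluded 1. They were 0.248, 0.370 and 0.346 within strata of width and −log10 q. With the summit or midpoint of the factor peak inside the domain, they were 0.392, 0.443 and 0.471. For isolated domains the ratios were 0.0718 (0.0579 to 0.0891) for TLE, 0.170 (0.147 to 0.197) for p300, 0.188 (0.163 to 0.217) for Otx2 and 0.642 (0.510 to 0.809) for Gsc. For Lim1 the ratio was 1.28 (1.12 to 1.46), but 0.899 (0.797 to 1.02) without strata. Its lowest value over the settings was 0.605 (0.478 to 0.766), with the 20000 Lim1 peaks of highest fold. Its highest was 3.40 (2.56 to 4.53), with H3K27ac −log10 q of at least 3.

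TLE, p300 and Otx2 were met most often close to H3K4me1. Within 500 bp of H3K4me1, 51.2% of 771 domains met TLE, 62.4% met p300 and 62.6% met Otx2. At 500 bp to 1 kb the shares were 27.3, 37.1 and 37.8%. Farther out, TLE was met by 9.20% of domains at 2 to 5 kb and 4.88% at 10 to 50 kb. p300 was met by 32.0% and 30.1% of domains at these distances, and Otx2 by 30.9% and 26.3%. Lim1 stood at 43.3% within 500 bp, 35.6% at 500 bp to 1 kb and 49.0% at 10 to 50 kb. Beyond 50 kb lay 48 domains, of which 14.6% (6.07 to 27.8) met TLE and 60.4% (45.3 to 74.2) met Lim1. Of these 48, 43.75% (29.5 to 58.8) met p300 and 35.4% (22.2 to 50.5) met Otx2, with intervals that hold the shares at 10 to 50 kb. Gsc was met by 4.02% of domains within 500 bp, 3.24% at 500 bp to 1 kb and 8.47% at 1 to 2 kb. Its shares were 8.31% at 2 to 5 kb, 4.70% at 5 to 10 kb and 8.07% at 10 to 50 kb. Beyond 50 kb, 12.5% (4.73 to 25.2) met Gsc, an interval that holds the share at 10 to 50 kb. The median H3K27ac −log10 q was 6.48 within 500 bp and 2.09 at 10 to 50 kb, and was not held fixed here.

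**Figure D4:**
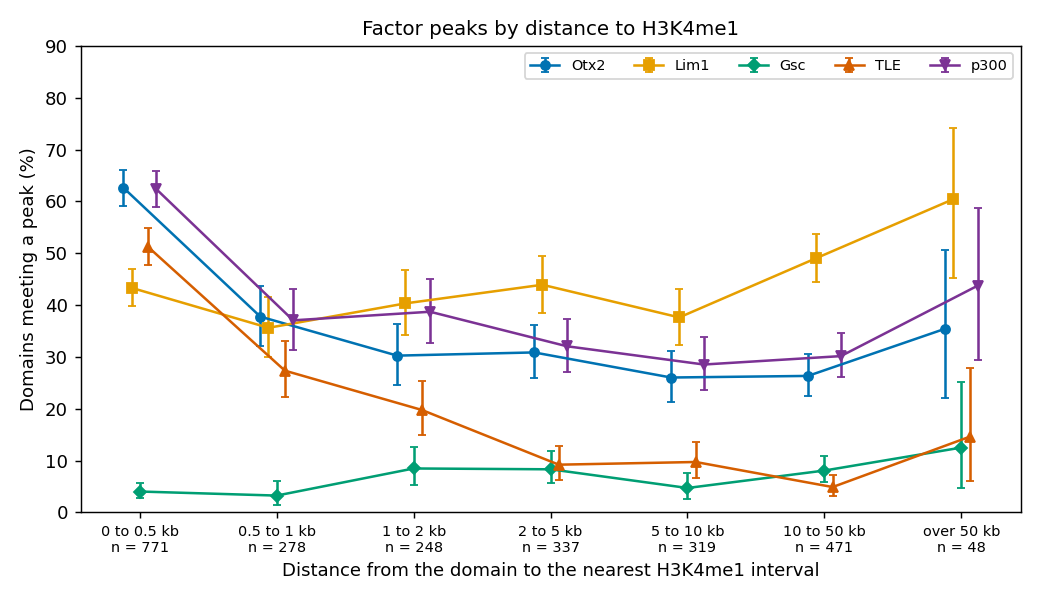
Points give the percentage of H3K27ac domains without H3K4me1 that meet a peak of each list, by distance to the nearest H3K4me1 interval in 7 ranges, with exact 95% intervals and the number of domains under each range. TLE is at 51.2% within 0.5 kb and 4.88% at 10 to 50 kb, while Lim1 is at 43.3 and 49.0%.

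The strongest flanked and the strongest isolated domains differed in how often they met each factor, most of all TLE. Among flanked domains of 4.5-fold and over, all 132 met p300, 97.0% met Otx2, 90.2% met TLE and 63.6% met Lim1. Gsc was met by 2 of the 132. Among the 61 isolated domains of that fold, 96.7% (88.7 to 99.6) met Lim1, 72.1% p300, 54.1% Otx2 and 26.2% (15.8 to 39.1) Gsc. TLE was met by 3 of these 61 (4.92%, 1.03 to 13.7). Of the 1867 domains with H3K4me1 of that fold, 98.6% met p300, 95.6% Otx2 and 81.6% TLE. Lim1 was met by 66.5% of these 1867 and Gsc by 17.6%. The weakest flanked domains, below 2.5-fold, met TLE in 27.7% of cases, and the isolated ones below 2.5-fold in 15.8%. Where Lim1 was met, it covered a median 10.04% of the strongest flanked domains and 52.3% of the strongest isolated ones. At domains with H3K4me1 of 4.5-fold and over this median was 19.6%. The classes of fold were chosen after the data were examined and carry no test.

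**Figure D5:**
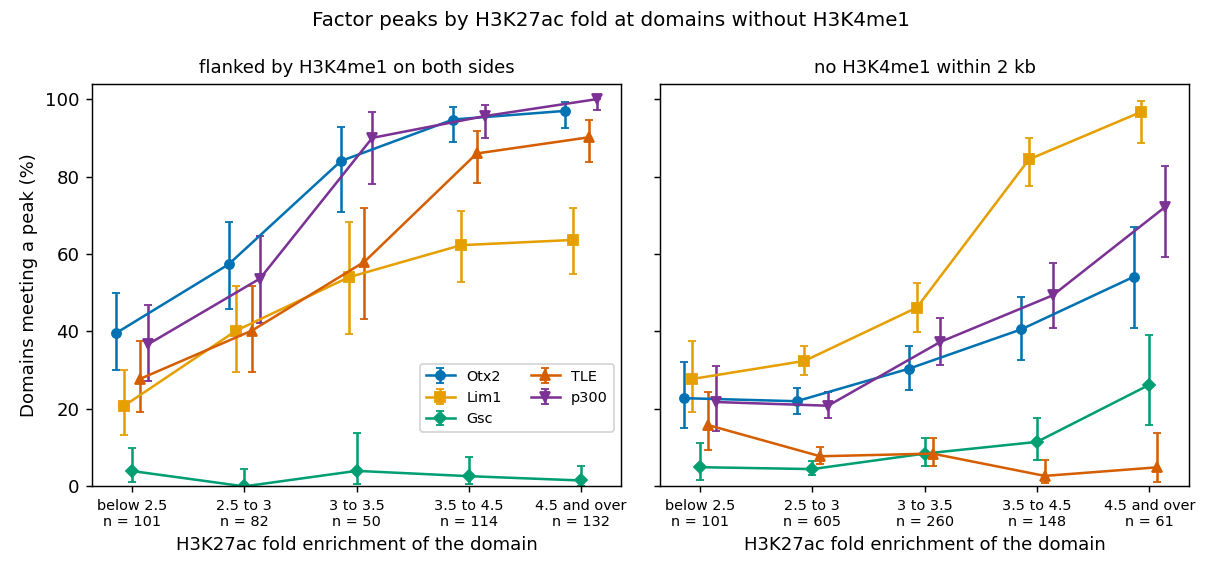
Points give the percentage of domains meeting a peak of each list, by H3K27ac fold enrichment of the domain, with exact 95% intervals, for flanked domains (left) and isolated domains (right). At 4.5-fold and over, TLE stands at 90.2% on the left and 4.92% on the right, and Lim1 at 63.6 and 96.7%.

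Combinations of factors also differed between flanked and isolated domains. Otx2, TLE and p300 were all met by 284 of the 479 flanked domains (59.3%) and by 40 of the 1175 isolated ones (3.40%). The share at domains with H3K4me1 was 54.3%. The most frequent full combination at flanked domains was Otx2, Lim1, TLE and p300 without Gsc (172 domains, 35.9%), followed by the same without Lim1 (103, 21.5%). At isolated domains it was none of the 5 (452 domains, 38.5%), followed by Lim1 alone (170, 14.5%) and by Otx2, Lim1 and p300 (101, 8.60%). At domains with H3K4me1, the combinations named for flanked domains stood at 22.2 and 23.7%. Those named for isolated domains stood there at 10.3, 2.41 and 5.91%. Lim1 without Otx2 was found at 5.22% of flanked and 26.6% of isolated domains, and at 6.95% of domains with H3K4me1. p300 without TLE was found at 14.8% of flanked and 26.3% of isolated domains, and TLE without p300 at 2.30% and 3.32%. At domains with H3K4me1, p300 without TLE was found at 19.2% and TLE without p300 at 5.997%.

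Isolated domains with Gsc mostly met Lim1 as well. Of the 87 isolated domains with Gsc, 74 (85.1%) also met Lim1, against 44.9% of all isolated domains, and 12 (13.8%, 7.34 to 22.8) met TLE, against 7.83%. Of the 1504 domains with both H3K4me1 and Gsc, 90.2% met Lim1, against 47.6% of all those with H3K4me1, and 69.5% met TLE, against 63.9%. All 11 flanked domains with Gsc met TLE and Otx2 (71.5 to 100%), against 64.1 and 76.2% of all flanked domains. Otx2 was met by 92.2% of the 1504 domains with H3K4me1 and Gsc, against 73.7% of all those with H3K4me1. Neither width nor fold was held fixed in these shares.

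The strongest p300, TLE and Otx2 peaks met by a domain had a higher fold at flanked than at isolated domains. Where a domain met several peaks of a list, only the one of highest fold was counted. Domains with p300 met a mean of 1.76 p300 peaks if flanked and 1.35 if isolated, and neither this number nor width was held fixed. The median fold of the strongest p300 peak was 7.79 at flanked domains and 4.21 at isolated ones, at the 82.3 and 40.7 percentiles of the p300 list, and 8.24 at domains with H3K4me1. For Otx2 these medians were 4.55, 3.18 and 4.55, and for TLE 7.33, 4.80 and 8.01. The strongest Lim1 peaks differed little, with medians of 3.68, 3.58 and 3.71. A p300 peak with a −log10 q of at least 10 stood at 313 of the 367 flanked domains with p300 and at 33 of the 362 isolated ones. Of the 9134 domains with H3K4me1 and p300, 6557 (71.8%) met such a peak. Lim1 reached that strength at 1 flanked and at 0 of 528 isolated domains with Lim1, a count that allows a share of up to 0.568%. This limit is 3 divided by the number of domains, an approximation, and not an exact interval. Such Lim1 peaks were also rare at domains with H3K4me1, at 82 of the 5640 with Lim1 (1.45%).

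Another measure of the calls moved with the flanks. In the narrow-peak lists some folds fall on evenly spaced steps, of 0.383 in the p300 list, 0.453 in the TLE list and 0.610 in the Gsc list. Such folds made up 21.9% of all p300 peaks, but 0 of the 643 at flanked domains and 39.1% of the 488 at isolated ones, and 7.64% of those at domains with H3K4me1. For TLE the shares were 29.6% of the list, 1.15% of 436 peaks at flanked domains, 47.6% of 105 at isolated ones and 14.8% at domains with H3K4me1. For Gsc they were 12.3% of the list, 0 of 15 peaks at flanked domains, 21.5% of 93 at isolated ones and 9.34% at domains with H3K4me1. The part of this in the differences between classes was not tested.

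The place of the peaks within the domains varied by factor and class. Points spread evenly would place 50% of them in the central 50% of the width, and no intervals were computed for these shares. The central part held 52.0% of 221 TLE summits at flanked and 50% of 94 at isolated domains. For p300 it held 53.2% of 466 and 51.1% of 507 summits, so the summits inside the domains lay near an even spread in these classes. Summits outside a domain that its peak overlaps were not counted. Of the flanked domains, 64.1% met TLE but 35.5% held a TLE summit. For isolated domains these shares were 7.83 and 6.21%. At domains with H3K4me1 the central part held 58.2% of TLE and 56.0% of p300 summits. Otx2 midpoints lay there in 48.7% of cases at flanked, 52.7% at isolated and 60.4% at H3K4me1-bearing domains. Lim1 midpoints did so in 45.8, 57.3 and 60.4% of cases.

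A larger share of flanked domains than of the H3K4me1 intervals beside them met p300, TLE, Otx2 and Lim1. The 944 flanking H3K4me1 intervals had a median width of 418 bp, below the 829 bp of the flanked domains, and a median fold of 2.40, against 2.84 over the whole H3K4me1 list. Of the flanked domains 76.6% met p300, and of the flanking intervals 48.4% (45.2 to 51.7). For TLE the shares were 64.1 and 40.1%, for Otx2 76.2 and 36.8%, and for Lim1 49.3 and 10.5%. Gsc was met by 2.30 and 2.01%. Of the flanking intervals 38.8% met another H3K27ac interval. The 2188 H3K4me1 intervals nearest to isolated domains, with a median width of 339 bp, met p300 in 47.3% and TLE in 36.6% of cases. They met Otx2 in 45.7%, Lim1 in 24.0%, Gsc in 6.99% and an H3K27ac interval in 41.2%. Width was not held fixed in these comparisons.

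Of the 820 domains that met none of the 5 factors, 68 were flanked, 300 half-flanked and 452 isolated. A factor peak lay within 500 bp of 55 of those 68 flanked domains and of 141 of those 452 isolated ones. The median distance to it was 193.5 bp for the flanked and 1174 bp for the isolated domains.

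All 5 factors met at 21 of the 2472 domains, 6 of them flanked and 6 isolated. The 5 in which the weakest of the 5 peaks stood highest in its own list were 3 isolated and 2 flanked domains. The isolated domain on chromosome 8 at 63884469 to 63885086 had an H3K27ac fold of 3.48. Its factor folds were 13.2 for TLE, 12.2 for p300, 8.87 for Otx2, 6.54 for Gsc and 4.59 for Lim1. Its nearest H3K4me1 intervals lay 51557 bp before and 2875 bp after it. Over the whole lists the median folds were 5.89 for TLE, 4.62 for p300, 3.61 for Otx2, 4.88 for Gsc and 3.49 for Lim1. The isolated domain on chromosome 10 at 25048051 to 25048938 had a TLE fold of 21.02 and a p300 fold of 11.4, with H3K4me1 at 2810 and 47157 bp. The remaining isolated domain lay on chromosome 2 at 133171516 to 133172071, with an H3K27ac fold of 1.94 and a Gsc fold of 8.75. The 2 flanked domains lay on chromosome 3 at 63012847 to 63014095, with 5.52-fold H3K27ac and a TLE fold of 16.2, and on chromosome 8 at 44356302 to 44357667, with 2.20-fold H3K27ac and a Gsc fold of 7.09. The first of these had H3K4me1 at 16 bp before and 158 bp after it.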

How the data were processed

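Peak lists of 7 ChIP-seq libraries were analysed. The submitters' processing notes name MACS2 and deepTools with no version. Aligner and genome build were "not given in the sources used here". Gsc, TLE and p300 have narrow-peak lists, the others broad-peak lists. The authors deposited for each peak a fold enrichment (a ratio of signal to local background), a −log10 p and a −log10 q, and a score that is 10 times the −log10 q (largest difference 1). Read depth is unknown from these lists. For overlaps and folds, lines of 1 narrow interval were reduced to its summit of highest fold. For summits inside domains, all summits of an interval were counted. The last gene of the gene table, on UCB_Xtro_10.0, runs at least 1 Mb beyond the last listed peak on all 10 chromosomes, so neither its coordinates nor sequences were used. Positions are those of the lists, counted from 1, and overlap means at least 1 bp.

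Mantel-Haenszel odds ratios have Robins-Breslow-Greenland 95% intervals, within 10 width bins of 100 bp crossed with 5 equal groups of H3K27ac fold. Shares have exact (Clopper-Pearson) intervals. The procedures were tested on simulated data. The domains, the classes and the comparisons were chosen with earlier results of these data known. Named domains are the 5 of highest H3K27ac fold, the 5 that meet all factors with the highest lowest fold percentile, and those with the widest and narrowest H3K4me1 gap. The run of 4 domains was named after its values were seen. Analyses used Python 3.11.15, pandas 2.3.3 and scipy 1.17.1.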

Additional observations from a re-analysis of the deposited data

How the results depend on the processing

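No paired analysis was possible because the study holds a single library for each antibody. Depth is unknown from peak lists, and which libraries could show a weak peak cannot be judged. Strata of −log10 q or of 10 equal groups of fold, and both comparisons of flanked or isolated domains against domains with H3K4me1, were chosen after the data were examined. Over all alternatives, 445 of 498 odds ratios kept their direction and their side of the interval, among them 190 of 200 with 1 chromosome left out. For domains without over with H3K4me1, the ratios ranged over the settings other than leaving out a chromosome from 0.0874 (domains at least 1 kb from H3K4me1) to 0.414 (widths of 1000 bp and over) for TLE, from 0.164 to 0.337 for p300, from 0.196 to 0.476 for Otx2 and from 0.0914 (factor peaks with −log10 q of at least 10) to 0.673 for Gsc. For flanked over isolated domains they ranged from 3.46 to 22.1 for TLE, from 1.41 to 28.1 for Otx2, from 1.17 to 40.02 for p300 and from 0.0599 to 0.618 for Gsc. Few domains met a Gsc or Lim1 peak of −log10 q of at least 10. Of the domains without H3K4me1, 5 met such a Gsc peak and 3 such a Lim1 peak. The Gsc ratio of 0.618 rests on 1 flanked and 2 isolated domains, with an interval of 0.0213 to 18.0. The order of the factors depends on the setting: with factor peaks of −log10 q of at least 10 the ratios were 40.02 for p300, 28.1 for Otx2 and 17.6 for TLE, and with the 20000 peaks of highest fold 18.4, 23.5 and 3.46. The cause of the changes below was not tested.

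The Lim1 ratio without over with H3K4me1 (1.11) was 0.829 with no strata, 0.939 with width strata, 1.03 with fold strata, 0.236 with factor peaks of −log10 q of at least 10, 0.679 with the 20000 peaks of highest fold, 0.935 at widths of 1000 bp and over and 0.839 with scaffolds included. It was 1.09, 1.02, 1.10, 1.10 and 1.10, no longer excluding 1, without chromosome 2, 3, 4, 7 or 8. For flanked over isolated domains, Lim1 was 1.19 with no strata, 0.919 with the 20000 peaks and 0.471 at widths of 1000 bp and over, where Gsc was 0.321. Gsc was 0.618 at the limit on q (where Lim1 could not be fitted), and p300 was 1.17 within strata of width and −log10 q.

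For flanked domains over domains with H3K4me1, no strata gave 1.14 for Otx2, 1.07 for Lim1, 1.01 for TLE and 0.977 for p300. Width strata gave 0.891 for Otx2 and 0.842 for TLE, fold strata 0.948 and 0.832, the limit on q 1.44 and 1.08 with 1.13 for p300, H3K27ac −log10 q of at least 3 gave 0.991 and 0.938 with 0.767 for p300, widths of 1000 bp and over gave 0.742 and 0.892, and a flank distance of 1 kb 0.827 and 0.834. Otx2 was 0.755 at widths under 1000 bp, 0.788 without chromosome 4 and 0.845 without chromosome 7. Lim1 came to exclude 1 at 0.754 within strata of −log10 q, 0.553 with the summit or midpoint inside, 0.714 with the 20000 peaks, 0.807 without chromosome 2, 0.807 without chromosome 3 and 0.675 with scaffolds. For isolated domains over domains with H3K4me1, Lim1 was 0.899 with no strata, 1.08 with fold strata, 0.605 with the 20000 peaks, 1.51 at widths of 1000 bp and over, 1.14 without chromosome 3 and 0.916 with scaffolds, and Gsc was 0.95 with H3K27ac −log10 q of at least 3 and 0.809 at widths of 1000 bp and over.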
